A study of Mus musculus with 12 samples.

Results

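The α-arrestins are a family of adaptor proteins with an arrestin fold, and 5 of their genes are followed here, Txnip, Arrdc1, Arrdc2, Arrdc3 and Arrdc4. The genes were taken by symbol, and 9 of the 45037 probe sets kept were named for them, of which 8 had a mean log2 signal above 3.78, the median of all probe sets. Where a gene had several probe sets, the one with the brightest mean over all 12 arrays stood for it. The 5 genes were among the 11345 tested, and none of the 5 was lost to the filter on dim probe sets. Probe sets were thus chosen by their mean signal over all groups, and not by diet or genotype. The family itself was proposed with earlier results of these data known, among them the diet difference of Arrdc3. The sizes, p-values and ranks of its genes, and the counts called, are therefore given as a description. The shares over all genes beside those counts are no test of the family. A further α-arrestin gene on the arrays, Arrdc5, had a mean signal of 1.60, was below the filter and is not among the 5.

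Muscle was taken from mice at 16 weeks of age on a mixed background of 129/Sv and C57BL/6. The groups were GPR120 KO mice on a high fat diet (KO HFD), GPR120 KO mice on a normal diet (KO ND), wild-type mice on a high fat diet (WT HFD) and wild-type mice on a normal diet (WT ND), with 3 mice and 3 arrays in each. GPR120, the product of Ffar4, senses long-chain fatty acids at the cell surface. The labels used here name neither the muscle nor the sex of the mice, and say nothing of the composition and duration of the diets or of the hour and feeding state at dissection. Each group has its own range of mouse numbers, and cohort and group cannot be told apart.

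α-Arrestins link membrane proteins to ubiquitin ligases of the NEDD4 family through short PY motifs in their tails, and so steer receptors and transporters into endosomes. TXNIP binds and inhibits thioredoxin and lowers glucose uptake by promoting the internalisation of the glucose transporters GLUT1 and GLUT4. Its gene is known for strong induction by glucose through the factors MondoA and ChREBP, and ARRDC4 is its closest relative in sequence and regulation. ARRDC3 is known from mice for acting on β-adrenergic receptors and on energy expenditure, ARRDC1 drives the budding of vesicles from the plasma membrane, and ARRDC2 is the least studied.

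The stretch of genome in front of Arrdc2, Arrdc3, Txnip and Arrdc4, the closest relative of Txnip, is shown here as a description. Arrdc2 and Arrdc3 were called lower on the high fat diet in both genotypes. On its brightest probe set Txnip was called only in the average over genotypes, and Arrdc4 was not called in any comparison. The part of these sequences in the diet differences was not tested. The windows run from 250 bases before the start to 50 bases after it, 5′ to 3′ on the strand of the gene, from RefSeq on mouse build GRCm38.p6. Txnip lies at chr3:96557957-96561857 on the plus strand with its window at chr3:96557707-96558006, and Arrdc2 at chr8:70835129-70839720 on the minus strand with its window at chr8:70839671-70839970. Arrdc3 lies at chr13:80883384-80896042 on the plus strand with its window at chr13:80883134-80883433, and Arrdc4 at chr7:68736994-68749238 on the minus strand with its window at chr7:68749189-68749488. Capitals mark matches to the motifs searched on both strands, which were chosen with the windows in view.
Txnip: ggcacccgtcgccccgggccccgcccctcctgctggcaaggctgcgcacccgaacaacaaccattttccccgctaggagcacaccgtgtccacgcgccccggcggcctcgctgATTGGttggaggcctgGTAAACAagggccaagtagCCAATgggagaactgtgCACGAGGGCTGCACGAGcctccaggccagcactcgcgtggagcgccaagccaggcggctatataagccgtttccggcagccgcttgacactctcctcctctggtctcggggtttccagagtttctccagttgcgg
Arrdc2: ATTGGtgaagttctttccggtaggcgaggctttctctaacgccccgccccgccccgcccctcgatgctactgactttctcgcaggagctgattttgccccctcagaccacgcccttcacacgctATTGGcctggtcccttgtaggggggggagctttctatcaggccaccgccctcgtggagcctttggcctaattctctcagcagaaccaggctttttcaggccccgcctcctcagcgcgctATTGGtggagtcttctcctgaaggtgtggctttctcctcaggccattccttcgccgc
Arrdc3: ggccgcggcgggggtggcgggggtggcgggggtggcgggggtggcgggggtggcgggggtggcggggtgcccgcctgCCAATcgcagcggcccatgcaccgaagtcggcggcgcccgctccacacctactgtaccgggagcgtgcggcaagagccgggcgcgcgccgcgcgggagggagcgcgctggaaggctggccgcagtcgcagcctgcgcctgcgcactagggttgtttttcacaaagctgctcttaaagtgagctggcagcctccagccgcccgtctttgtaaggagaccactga
Arrdc4: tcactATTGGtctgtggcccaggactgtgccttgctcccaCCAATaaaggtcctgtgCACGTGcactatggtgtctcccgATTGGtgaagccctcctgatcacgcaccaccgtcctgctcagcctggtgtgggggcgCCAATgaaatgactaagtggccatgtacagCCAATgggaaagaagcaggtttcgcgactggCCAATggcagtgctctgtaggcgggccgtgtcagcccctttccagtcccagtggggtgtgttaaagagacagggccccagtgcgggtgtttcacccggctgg

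The motifs were the FoxO site GTAAACA, the E-box CACGTG, a carbohydrate response element written as CACGNG, 5 bases and CACGNG, the CCAAT box CCAAT, which reads ATTGG on the other strand, and a glucocorticoid response element written as AGAACA, 3 bases and TGTTCT. The E-box and the carbohydrate element can overlap, since CACGTG is a form of CACGNG. In the Txnip window GTAAACA began 121 bases before the start and the carbohydrate element 85 bases before it, with a CCAAT box on either side of GTAAACA. The FoxO letters were in 3.65% and the carbohydrate element in 0.0487% (16) of the 32851 windows in the RefSeq table. Since the motifs were chosen with the windows in view, the shares given here are no test of the matches. The Arrdc2 window held 3 CCAAT boxes and the Arrdc3 window 1, and neither held a match to the other 4 motifs. RefSeq gave 3 windows for Arrdc3, and only the one at its annotated start is shown and described. The Arrdc4 window held CACGTG, beginning 193 bases before the start, and 6 CCAAT boxes. CACGTG was in 7.15% of all windows and CCAAT in 37.4%. The glucocorticoid element was in 0.00913% of all windows and in none of the windows of the 5 genes, and the window listed for Arrdc1, which does not begin at the annotated start of that gene, held none of the motifs. A missing match says only that these letters are not in the window.

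The 12 arrays had log2 medians between 3.87 and 4.17 and correlated on average at 0.887 to 0.901 with the others of their group. The precision of every value is limited by the 3 arrays per group. The limma p-values set each difference against the spread between mice within groups, estimated over all 4 groups. Markers of skeletal muscle fibres were among the brightest signals, with Tnnt3, fast troponin T, at a mean of 13.97 and Tnni2, fast troponin I, at 13.84. The signal of Ffar4 was too low for a check of the knockout, with log2 values of 0.98 to 3.19 in KO HFD, 0.33 to 3.88 in KO ND, 0.56 to 2.40 in WT HFD and −1.39 to 2.26 in WT ND muscle. The labels used here do not say whether its probe set lies in the deleted part. In whole muscle, fewer cells of a type and less RNA per cell cannot be told apart.

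Arrdc3 and Arrdc2 were about 5-fold and 4.5-fold lower on the high fat diet, in KO and in wild-type muscle, and Txnip was lower by a smaller amount that differed between its probe sets. Arrdc1 and Arrdc4 were not called in any comparison. Genotype effects on the 5 genes did not pass the test on either diet. Of the 5 genes, 2 were called lower by diet in KO muscle at an adjusted p below 0.05, where 4.54% of all 11345 genes were called in either direction and 1.88% were called lower. The same 2 genes were called lower in wild-type muscle, where 6.06% of all genes were called and 2.99% were called lower. The median log2 difference of the 5 genes was −0.27 in KO and −0.32 in wild-type muscle, beside 0.05 and 0.04 over all genes.

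**Figure D1:**
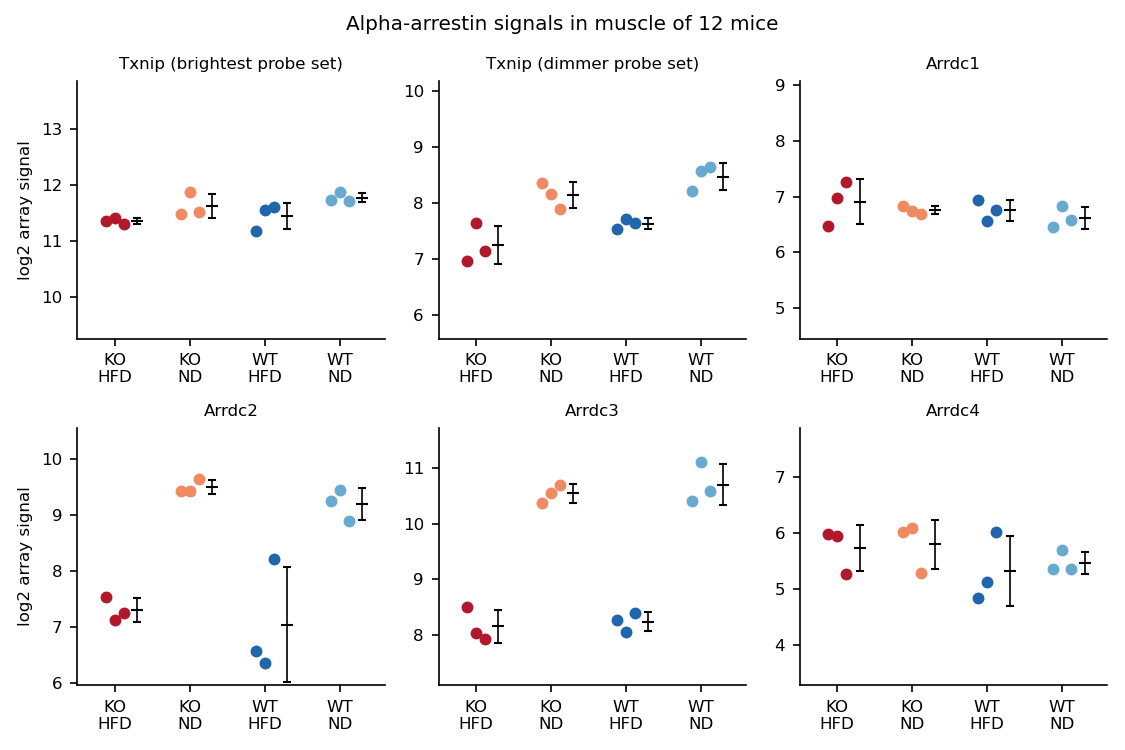
Log2 array signal of the α-arrestins in each of the 12 mice (points), with the group mean and SD of 3 mice (bars), with the brightest probe set of each gene and also the dimmer one of Txnip, all panels spanning the same log2 range. Arrdc3 sat between 7.93 and 8.50 in the HFD mice and between 10.37 and 11.11 in the ND mice, and the groups overlapped for Arrdc4 on the probe set shown.

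Arrdc3, probe set 1454617_at, had log2 signals of 8.50, 8.05 and 7.93 in KO HFD muscle, against 10.37, 10.55 and 10.70 in KO ND muscle. In wild-type mice it had 8.28, 8.06 and 8.40 in HFD muscle, against 10.41, 11.11 and 10.58 in ND muscle. Every HFD mouse lay below every ND mouse of either genotype, and the HFD groups of KO and wild type overlapped, as did their ND groups. The difference was −2.38 ± 0.18 in KO muscle (SE, 95% interval −2.77 to −1.98, limma adjusted p = 6.43e-05), which is 5.20-fold lower. In wild-type muscle it was −2.45 ± 0.18 (95% interval −2.85 to −2.06, limma adjusted p = 2.23e-05), or 5.46-fold lower. Arrdc3 ranked 1 of 11345 genes by p-value in KO muscle and 2 in wild-type muscle, and ranked 14 and 23 by the size of its decrease.

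Between the highest HFD mouse, at 8.50, and the lowest ND mouse, at 10.37, lay a gap of 1.87 on the log2 scale, or 3.66-fold. Measured as this gap, with the ND mice above, Arrdc3 ranked 1 of the 11345 genes. Over the 12 arrays diet accounted for 96.6% of the variance of Arrdc3 and genotype for 0.25%. Of all genes, 4.92% had no overlap between the 6 HFD and the 6 ND mice, and 2.34% had none with the HFD mice below.

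Arrdc2, probe set 1428352_at, had log2 signals of 7.54, 7.12 and 7.24 in KO HFD muscle, against 9.43, 9.44 and 9.64 in KO ND muscle. In wild-type mice it had 6.56, 6.35 and 8.22 in HFD muscle, against 9.25, 9.45 and 8.89 in ND muscle. The HFD and ND mice again did not overlap, but replicate 3 of the WT HFD group stood well above the other mice on that diet. The difference was −2.20 ± 0.35 in KO muscle (SE, 95% interval −2.96 to −1.44, limma adjusted p = 0.00485), which is 4.59-fold lower. It was −2.15 ± 0.35 in wild-type muscle (95% interval −2.92 to −1.39, limma adjusted p = 0.00478), or 4.45-fold lower, and −2.74 without that mouse. The gap between the diets was 0.67, or 1.59-fold, which ranked 17 of 11345, and diet accounted for 84.4% of the variance.

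Txnip had a bright and a dimmer probe set, and they gave different sizes. The mean signal of the brightest was at percentile 98.7 of all probe sets and that of the dimmer one at 87.6, and the part of this in the difference between them was not tested. On the brightest, 1415996_at, the log2 signals were 11.36, 11.40 and 11.30 in KO HFD muscle, against 11.48, 11.87 and 11.52 in KO ND muscle. In wild-type mice they were 11.18, 11.55 and 11.61 in HFD muscle, against 11.73, 11.87 and 11.71 in ND muscle. Within each genotype the HFD mice lay below the ND mice, as they did for 10.2% of all genes in KO and 11.1% in wild-type muscle, while over both genotypes the diets overlapped. The difference of −0.27 ± 0.12 in KO muscle (SE, 95% interval −0.53 to −0.01) did not pass the test (limma adjusted p = 0.224), nor did −0.32 ± 0.12 in wild-type muscle (95% interval −0.58 to −0.06, adjusted p = 0.128).

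On the dimmer probe set, 1415997_at, Txnip had log2 signals of 6.97, 7.64 and 7.14 in KO HFD muscle, against 8.37, 8.17 and 7.90 in KO ND muscle. In wild-type mice it had 7.53, 7.72 and 7.64 in HFD muscle, against 8.21, 8.57 and 8.65 in ND muscle. Here all 6 HFD mice lay below all 6 ND mice, with a gap of 0.18. The same held for 2.34% of all genes on their brightest probe sets, and no such share was taken over all probe sets. Fitted among all 19387 named probe sets above the filter, the difference was −0.89 ± 0.18 in KO muscle (limma adjusted p = 0.0183), or 1.86-fold lower. It was −0.84 ± 0.18 in wild-type muscle (limma adjusted p = 0.0187), or 1.79-fold lower. In that fit 3.37% of probe sets were called in KO and 5.21% in wild-type muscle. Leaving out 1 mouse at a time lost the call of the dimmer probe set in 4 of 12 cases in KO and 3 of 12 in wild-type muscle, with adjusted p up to 0.0811.

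Averaged over both genotypes, the diet difference was called lower for 3 of the 5 genes, where 13.7% of all genes were called and 6.19% were called lower. Txnip was the third, at −0.30 ± 0.09 on its brightest probe set (SE, 95% interval −0.48 to −0.12, limma adjusted p = 0.0345) and −0.87 ± 0.13 on the dimmer one (limma adjusted p = 0.00111), in a fit that called 11.2% of probe sets. The call on the brightest probe set was lost without the filter on dim probe sets, at an adjusted p of 0.0555, and in 6 of 12 fits that left out 1 mouse, at up to 0.0834. These were the fits without replicate 2 or 3 of WT ND, replicate 1 of WT HFD, replicate 2 of KO ND, or replicate 1 or 3 of KO HFD. The averaged difference was −2.41 ± 0.13 for Arrdc3 (limma adjusted p = 6.43e-07) and −2.18 ± 0.25 for Arrdc2 (limma adjusted p = 0.000207).

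**Figure D2:**
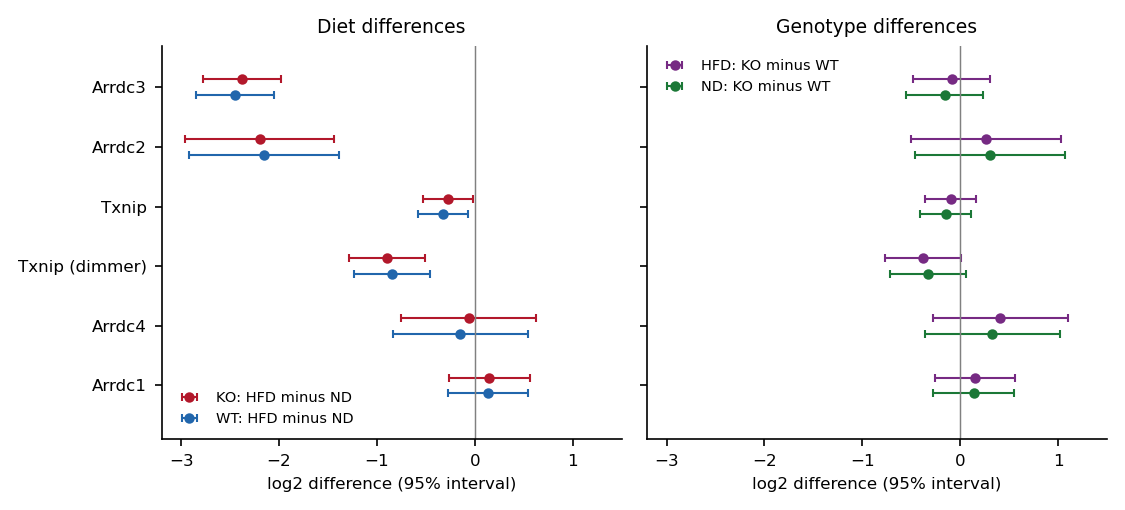
Log2 differences of the α-arrestins with 95% intervals from limma, for HFD minus ND in KO and in WT muscle (left panel) and for KO minus WT on HFD and on ND (right panel), with Txnip shown on both of its probe sets. The diet intervals of Arrdc3 and Arrdc2 have upper ends between −2.06 and −1.39 in both genotypes, and all genotype intervals shown include 0. The dimmer probe sets of Arrdc1 and Arrdc4 are not shown.

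Arrdc4, the closest relative of Txnip, was not called in any comparison. On its brightest probe set, 1426818_at, it had log2 signals of 5.99, 5.95 and 5.27 in KO HFD muscle, against 6.03, 6.09 and 5.29 in KO ND muscle. In wild-type mice it had 4.84, 5.12 and 6.02 in HFD muscle, against 5.36, 5.70 and 5.36 in ND muscle. The groups overlapped in both genotypes, with differences of −0.06 ± 0.32 in KO (SE, 95% interval −0.76 to 0.63, limma adjusted p = 0.94) and −0.15 ± 0.32 in wild-type muscle (−0.84 to 0.54, adjusted p = 0.837). A difference of the size of Arrdc2 or Arrdc3 lies outside these intervals, while one of the size seen for Txnip on its brightest probe set lies inside them.

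The dimmer Arrdc4 probe set, 1424759_at, had 5.09, 5.39 and 5.04 in KO HFD muscle, against 5.56, 5.54 and 5.52 in KO ND muscle. In wild-type mice it had 5.39, 5.67 and 5.51 in HFD muscle, against 5.48, 5.44 and 4.87 in ND muscle. The KO HFD mice lay below the KO ND mice, as they did for 10.2% of all genes on their brightest probe sets, and the wild-type groups overlapped. Neither difference was called, at −0.37 ± 0.21 in KO (SE, limma adjusted p = 0.391) and 0.26 ± 0.21 in wild-type muscle (adjusted p = 0.527). The difference between the genotypes in that response was −0.63 ± 0.30 (SE, limma adjusted p = 0.522), in an interaction test that called 0.0309% of probe sets.

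Arrdc1 had log2 signals of 6.47, 6.98 and 7.27 in KO HFD muscle, against 6.84, 6.75 and 6.69 in KO ND muscle, on probe set 1424578_at. In wild-type mice it had 6.93, 6.57 and 6.77 in HFD muscle, against 6.45, 6.83 and 6.59 in ND muscle. All groups overlapped, and the diet differences were 0.15 ± 0.19 in KO (SE, 95% interval −0.27 to 0.56, limma adjusted p = 0.728) and 0.13 ± 0.19 in wild-type muscle (−0.28 to 0.55, adjusted p = 0.734). Its dimmer probe set, 1444508_s_at, ranged from 2.89 to 5.65 over the 12 mice with KO HFD mice at 3.50, 2.89 and 5.21, and was not called in any comparison. On that probe set KO minus wild type on HFD was −1.38 ± 0.50 (SE, 95% interval −2.46 to −0.31, limma adjusted p = 0.237). This interval leaves out 0, while the mice of the KO HFD and WT HFD groups overlapped. The remaining Arrdc1 probe set, 1458613_at, had a mean of 2.15 and was below the filter.

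**Figure D3:**
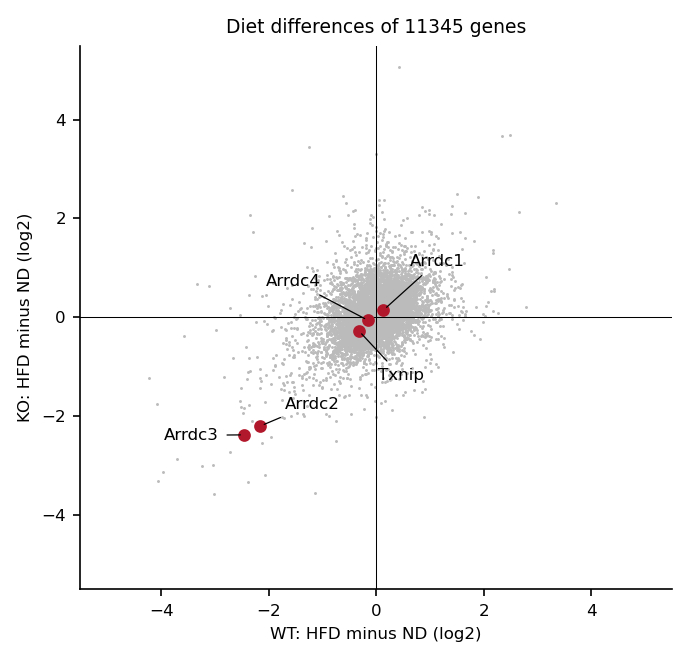
Diet differences (HFD minus ND, log2) of all 11345 genes in KO muscle (vertical axis) against wild-type muscle (horizontal axis), with the 5 α-arrestins in red. Arrdc2 and Arrdc3 lie at about −2.2 to −2.4 on both axes, and the other 3 lie within the central cloud.

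No difference between KO and wild-type muscle passed the test for any of the 5 genes. On the high fat diet 0 of 5 were called, where 0.732% of all genes were, and on the normal diet 0 of 5, where 0.414% were. For Arrdc3 the KO minus wild-type difference was −0.09 ± 0.18 on HFD (SE, 95% interval −0.48 to 0.31, limma adjusted p = 0.872) and −0.16 ± 0.18 on ND (−0.55 to 0.24, adjusted p = 0.817). For Arrdc2 it was 0.26 ± 0.35 on HFD (95% interval −0.50 to 1.03, adjusted p = 0.783) and 0.31 ± 0.35 on ND (−0.46 to 1.07, adjusted p = 0.817). Without replicate 3 of the WT HFD group the HFD value for Arrdc2 was 0.85 (adjusted p = 0.0762). Txnip differed by −0.10 ± 0.12 on HFD (−0.35 to 0.16, adjusted p = 0.764) and −0.15 ± 0.12 on ND (−0.41 to 0.11, adjusted p = 0.712) on its brightest probe set. On the dimmer Txnip probe set it was −0.38 ± 0.18 on HFD (−0.77 to 0.01, adjusted p = 0.379) and −0.33 ± 0.18 on ND (−0.72 to 0.06, adjusted p = 0.561), in a fit that called 0.459% of probe sets on HFD and 0.304% on ND.

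For Arrdc4 the genotype difference was 0.41 ± 0.32 on HFD (SE, 95% interval −0.28 to 1.10, limma adjusted p = 0.59) and 0.33 ± 0.32 on ND (−0.36 to 1.02, adjusted p = 0.773), and genotype accounted for 20.3% of its variance on that brightest probe set. On the dimmer Arrdc4 probe set the KO HFD mice lay below the WT HFD mice, as they did for 8.39% of all genes, and the KO ND mice above the WT ND mice, as for 9.25%. Neither difference was called there, at −0.35 ± 0.21 on HFD (limma adjusted p = 0.499) and 0.28 ± 0.21 on ND (adjusted p = 0.71). Whether the diet effect itself differed between KO and wild type was tested by the interaction, which called 0 of 5 genes and 0.141% of all genes. The interaction was 0.07 for Arrdc3 (95% interval −0.49 to 0.63, limma adjusted p = 0.95), −0.05 for Arrdc2 (−1.13 to 1.04, adjusted p = 0.983) and 0.05 for Txnip (−0.32 to 0.42, adjusted p = 0.948). The intervals for Arrdc2 leave room for a difference between the genotypes of about 1 on the log2 scale.

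The ratio of 3′ to 5′ signal on the beta-actin and Gapdh control probe sets, a sign of RNA quality, moved with diet. Its mean log2 value was 0.16 ± 0.13 in KO HFD, 0.07 ± 0.06 in KO ND, 0.18 ± 0.02 in WT HFD and −0.02 ± 0.09 in WT ND muscle (SD, n = 3 each), higher by 0.14 on HFD (two-sided exact permutation test, p = 0.0216). Beta-actin alone differed by 0.27 (exact permutation p = 0.0216) and Gapdh alone by 0.01 (exact permutation p = 0.398). With this ratio as a covariate, Arrdc2 and Arrdc3 were still called in both genotypes, with adjusted p up to 0.0414 over the alternatives tried. The averaged difference of Txnip on its brightest probe set was then −0.39 and not called (limma adjusted p = 0.0873).

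Markers of other cell types were compared in the same arrays. Of all 11345 genes, 302 were called higher by diet in KO muscle, 348 in wild-type muscle and 850 in the average over both genotypes. Macrophage markers, whose summed signal on a log2 scale was 11.87 to 12.65 in KO HFD and 11.28 to 11.67 in KO ND muscle, had 3 of 8 genes called higher by diet in KO. In wild-type muscle the sums were 11.02 to 12.09 on HFD and 11.76 to 11.94 on ND, and 0 of 8 were called. The brightest of them, Lyz2 (lysozyme) and Csf1r (a growth factor receptor), differed by 1.07 and 0.69 in KO and by −0.36 and −0.15 in wild-type muscle, and of these values only that of Lyz2 in KO passed the test (limma adjusted p = 0.0351). Adipocyte markers summed to 13.93 to 14.08 in KO HFD, 12.81 to 13.46 in KO ND, 13.08 to 13.92 in WT HFD and 12.90 to 13.18 in WT ND muscle, with 1 of 6 called in KO and 0 of 6 in wild-type muscle. That 1 gene was Fabp4, a fatty acid carrier, at 0.53 in KO (limma adjusted p = 0.0493) and 0.44 in wild-type muscle, and Adipoq, the adiponectin gene, was at 1.71 and 0.07. Fibroblast markers summed to 13.55 to 13.91 in KO HFD, 13.15 to 13.31 in KO ND, 12.89 to 13.37 in WT HFD and 13.10 to 13.25 in WT ND muscle, with 3 of 6 called in KO and 0 of 6 in wild-type muscle. The collagen gene Col3a1 differed by 1.24 in KO (limma adjusted p = 0.0166) and 0.11 in wild-type muscle, and the proteoglycan gene Dcn by −0.07 and −0.19. In the average over both genotypes, 2 of 6 adipocyte, 2 of 6 fibroblast, 1 of 8 macrophage and 2 of 7 endothelial markers were called higher. The part of these cell types in the differences of the α-arrestins was not tested. Muscle fibre markers summed to 17.08 to 17.21 in KO HFD, 16.91 to 17.20 in KO ND, 17.06 to 17.27 in WT HFD and 16.99 to 17.03 in WT ND muscle, with 0 of 11 called in either genotype and all 11 above 0 in both. Averaged over both genotypes 2 of the 11 were called higher, the myosin gene Myh2 at 0.34 (limma adjusted p = 0.0446) and the myoglobin gene Mb at 0.21 (adjusted p = 0.0407). Endothelial markers had medians of 0.19 in KO and 0.32 in wild-type muscle, with 0 of 7 called in KO and 1 of 7 called higher in wild-type muscle. That 1 gene was Kdr, a receptor for vascular endothelial growth factor, at 0.48 in KO (limma adjusted p = 0.406) and 1.24 in wild-type muscle (adjusted p = 0.0308). The brightest endothelial markers, Esam and Cdh5, were at 0.11 and −0.04 in KO and at −0.24 and 0.19 in wild-type muscle. The Schwann cell genes Mbp (−0.52 in KO, −0.30 in wild-type muscle) and Pmp22 (0.01 and −0.11) were not called, nor was the red cell gene Alas2 (−0.06 and −0.20).

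Arrdc2 and Arrdc3 varied together over the mice, and much of that variation lay between the diet groups. Over the 12 arrays their log2 values correlated at r = 0.930, and their deviations from the group means at r = 0.489. Txnip correlated at 0.736 with Arrdc3 and at 0.704 with Arrdc2, and its deviations from the group means at 0.206 and 0.363. Txnip and Arrdc4 correlated at 0.335 over the arrays and at 0.653 after the group means were removed. These values describe 12 arrays of 4 groups that share one platform and one scaling.

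**Figure D4:**
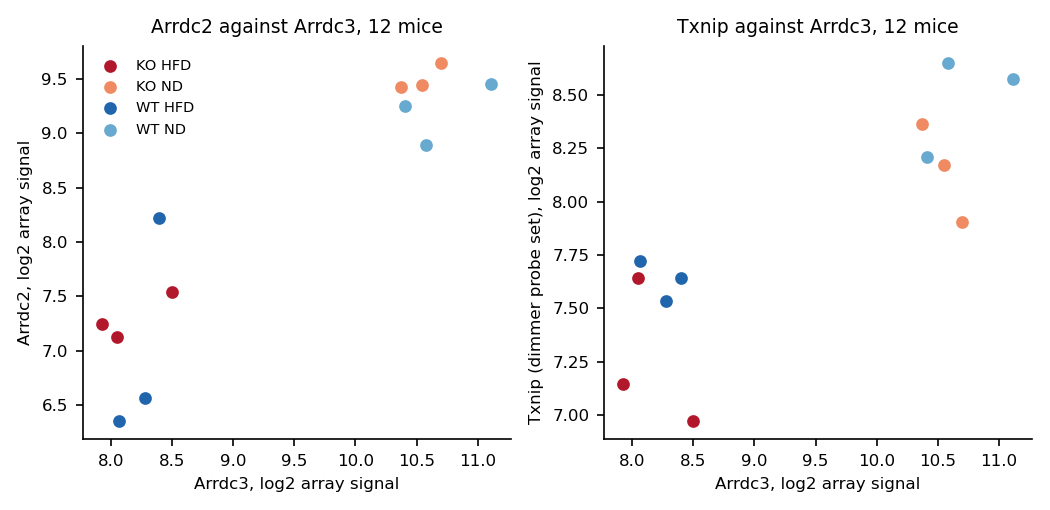
Log2 array signal of Arrdc2 (left) and of the dimmer Txnip probe set (right) against Arrdc3 in each of the 12 mice, coloured by group. The 6 HFD mice form the lower left cloud in both panels, and replicate 3 of WT HFD is the highest of them in Arrdc2, at 8.22.

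The genes most like each α-arrestin were those with the highest Pearson correlation over the 12 arrays. For Arrdc3 these were Twf2 (0.971), an actin-binding twinfilin, Nufip1 (0.967), Tmem140 (0.967), Napb (0.958) and the thiamine transporter gene Slc19a2 (0.957). Their correlations were 0.094 to 0.579 once the group means were removed. For Arrdc2 they were Zcchc7 (0.958), the cell cycle inhibitor gene Cdkn1a (0.958), Epc2 (0.956), Tob2 (0.955) and Tmem140 (0.946), and within groups 0.796 to 0.899. Tmem140 was thus on both lists, and its diet difference was −1.51 in KO and −1.63 in wild-type muscle.

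For Txnip the most alike were Mtmr4 (0.942), the co-chaperone gene Dnajb6 (0.933), Mocos (0.932), Mtpap (0.930) and Rbl2 (0.918), a relative of the retinoblastoma gene. They stayed at 0.855 to 0.908 within groups. For Arrdc1 they were Copz1 (0.885), Jrk, G3bp2, Dhx36 and Atxn7l1, and for Arrdc4 Ero1a (0.885), an endoplasmic reticulum oxidase, Rcc1, Samd4b, Slc35b2 and Itga5.

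FoxO factors and the glucocorticoid receptor are known to act on several genes of this family, and their other targets were read in the same contrasts. These lists were chosen with earlier results of these data known. The part of these factors in the differences of the α-arrestins was not tested. Among FoxO factors and their targets, 9 of 21 genes tested were called lower in KO muscle and 9 in wild-type muscle, 7 of them in both, and 0 were called higher. Of all genes, 1.88% were called lower in KO and 2.99% in wild-type muscle. The median difference of the 21 was −0.77 in KO and −0.67 in wild-type muscle. Depp1, a FoxO target in autophagy, was lower by diet with −3.14 ± 0.51 in KO (SE, limma adjusted p = 0.00485) and −3.97 ± 0.51 in wild-type muscle (adjusted p = 0.001). The muscle atrophy ligase gene Trim63 differed by −0.79 in KO and −0.80 in wild-type muscle (limma adjusted p = 0.00277 and 0.00124), and its companion Fbxo32 by −1.58 in KO (adjusted p = 0.00398) and −1.25 in wild-type muscle (adjusted p = 0.0109). Eif4ebp1, a brake on translation, differed by −0.96 in KO (adjusted p = 0.00282) and −0.61 in wild-type muscle (adjusted p = 0.0196). Gadd45a differed by −1.33 in KO (adjusted p = 0.00702) and −1.74 in wild-type muscle (adjusted p = 0.00119). Sesn1 was not called in KO, at −1.35 (adjusted p = 0.0587), and differed by −1.95 in wild-type muscle (adjusted p = 0.0109). Averaged over both genotypes 14 of the 21 were called lower, where 6.19% of all genes were. The wild-type count was 3 with the 3′ to 5′ ratio as a covariate and 4 without replicate 2 of WT ND.

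Genes of the glucocorticoid receptor list were called lower in 6 of 17 cases in KO and 13 of 17 in wild-type muscle, with 6 in both and 0 called higher, and with medians of −0.80 and −1.07. The shares of all genes called lower were 1.88% in KO and 2.99% in wild-type muscle. Cebpb, a bZIP transcription factor, differed by −0.91 ± 0.10 in KO (SE, limma adjusted p = 0.00088) and −1.07 ± 0.10 in wild-type muscle (adjusted p = 8.3e-05). Its relative Cebpd differed by −2.72 in KO (adjusted p = 0.00488) and −2.71 in wild-type muscle (adjusted p = 0.00475). Ddit4, an inhibitor of mTORC1, differed by −2.99 in KO (adjusted p = 0.0164) and −3.04 in wild-type muscle (adjusted p = 0.0125). Tsc22d3, the glucocorticoid-induced leucine zipper gene, differed by −0.72 in KO (adjusted p = 0.0192) and −1.10 in wild-type muscle (adjusted p = 0.00128). Fkbp5 differed by −0.91 in KO (adjusted p = 0.0218) and −1.28 in wild-type muscle (adjusted p = 0.00313). Averaged over both genotypes 15 of the 17 were called lower, where 6.19% of all genes were. The receptor gene Nr3c1 was not called, at −0.16 in KO and 0.11 in wild-type muscle. The KO count was 2 without replicate 2 of KO ND, and 2 without an intensity trend in the test. The wild-type count was 6 without an intensity trend, 4 with the covariate, and 4 and 7 without replicates 2 and 3 of WT ND. No gene of either list was called by the interaction, and the counts of the 2 genotypes were not tested against each other.

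**Figure D5:**
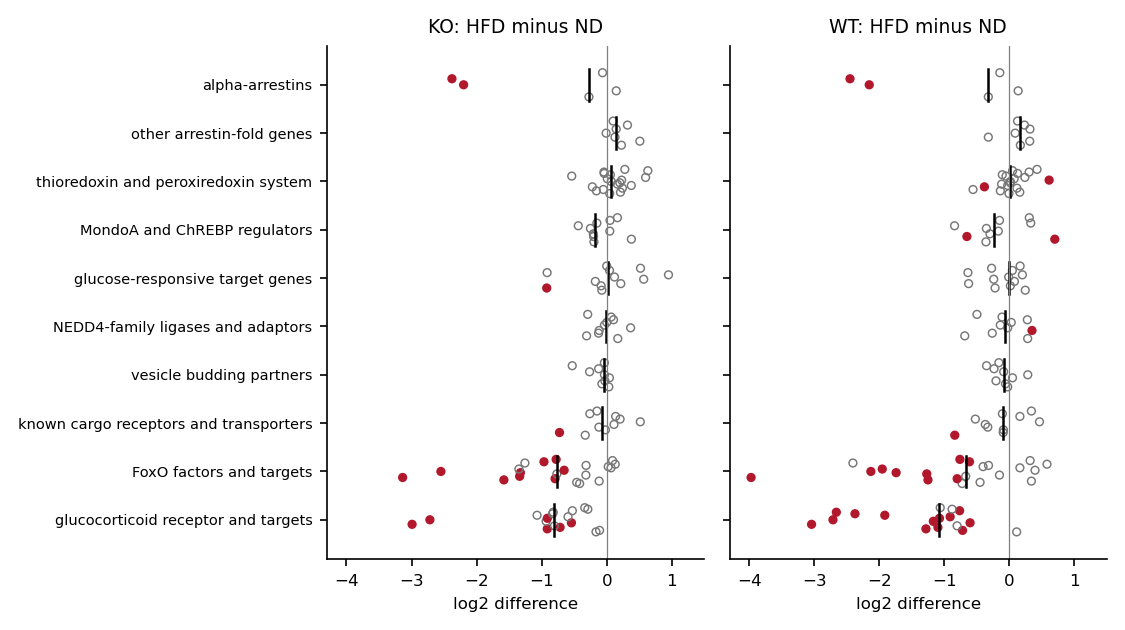
Log2 diet differences of each gene tested in the lists named in the text, in KO (left) and WT (right) muscle, with filled red points for genes past an adjusted p of 0.05 and a black line at the list's median. The FoxO and glucocorticoid lists have medians between −1.07 and −0.67, the α-arrestins −0.27 and −0.32, and the other lists medians between −0.23 and 0.17.

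Genes on the glucose-sensing side of Txnip regulation were read in the same contrasts. Diet called 4.54% of all genes in KO and 6.06% in wild-type muscle. Of 10 genes of the MondoA and ChREBP factors, 0 were called in KO muscle, where the median was −0.17. In wild-type muscle Mlxipl, which encodes ChREBP, was called higher at 0.70 ± 0.15 (SE, limma adjusted p = 0.0192) and its partner Mlx lower at −0.65 ± 0.16 (adjusted p = 0.033). Mlxip, which encodes MondoA, was not called, at −0.20 in KO and −0.36 in wild-type muscle. With both genotypes averaged, 2 of the 10 were called higher and 1 lower, where 13.7% of all genes were called. These were Mlxipl at 0.54 (limma adjusted p = 0.00633), Mxi1 at 0.23 (adjusted p = 0.0424) and Mlx at −0.43 (adjusted p = 0.0265). Of 12 other targets of these factors, Klf10, a Krüppel-like repressor, was called lower in KO muscle at −0.92 ± 0.18 (SE, limma adjusted p = 0.0159) and none in wild-type muscle, where the list's median was 0.00. In the average 2 of the 12 were called lower, Klf10 at −0.57 (limma adjusted p = 0.0121) and Pfkfb3 at −0.78 (adjusted p = 0.0395).

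Partners and cargo of the α-arrestins were read in the same way. Diet called 4.54% of all genes in KO, 6.06% in wild-type muscle and 13.7% in the average over genotypes. Of 10 NEDD4-family ligases and adaptors, Wwp1, a ligase that binds PY motifs, was called higher in wild-type muscle at 0.35 ± 0.09 (SE, limma adjusted p = 0.0446), and 0 were called in KO muscle. With both genotypes averaged, Nedd4 was called higher, at 0.23 (limma adjusted p = 0.0409). Nedd4l and Ndfip2 were called lower there, at −0.50 and −0.40 (adjusted p = 0.0452 and 0.0273). Of 9 vesicle budding partners, 0 were called in either genotype, the largest differences being those of Stam (−0.53 in KO, −0.35 in wild-type muscle) and Vps28 (−0.04 and 0.28). Averaged over both genotypes Stam was called lower, at −0.44 (limma adjusted p = 0.017). Of 10 cargo receptors and transporters tested, Slc2a3, the gene of GLUT3, was called lower in KO muscle at −0.73 ± 0.14 (SE, limma adjusted p = 0.0155). Slc2a1, the gene of GLUT1, was called lower in wild-type muscle at −0.84 ± 0.22 (adjusted p = 0.0401). Both were called lower in the average over genotypes, Slc2a3 at −0.41 and Slc2a1 at −0.59 (limma adjusted p = 0.0182 and 0.0257). Slc2a4, the gene of the insulin-responsive GLUT4, was at −0.02 in KO and −0.09 in wild-type muscle and was not called. The β-adrenergic receptor genes were not tested, since no probe set named a single one of them.

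The same shares of all genes, 4.54% in KO, 6.06% in wild-type muscle and 13.7% averaged, stand beside the counts that follow. Of 19 thioredoxin and peroxiredoxin genes, 0 were called in KO muscle, and in wild-type muscle Txnl1, a thioredoxin-like protein, was lower at −0.38 ± 0.10 (SE, limma adjusted p = 0.0327). Prdx2, a peroxide-reducing enzyme, was called higher at 0.61 ± 0.09 (limma adjusted p = 0.00163), but with the mean of all its probe sets it was −0.49. Of 7 other genes with an arrestin fold, 0 were called in either genotype, with Arrb2, a β-arrestin, at 0.51 in KO and 0.31 in wild-type muscle, and Arr3, the cone arrestin, at 0.13 and −0.32. Averaged over both genotypes Vps26c was called higher, at 0.28 (limma adjusted p = 0.0498). The calls of Txnl1, Mlxipl, Mlx, Wwp1 and Slc2a1 were each lost in 4 to 7 of the other settings tried, at adjusted p up to 0.179, and in 4 to 9 of the 12 fits that left out 1 mouse. Some KO calls were also lost in such fits, Fkbp5 in 4, Klf10 in 3, Slc2a3 and Tsc22d3 in 2 each and Ddit4 in 1, at limma adjusted p up to 0.0895. The KO calls of Depp1, Trim63, Fbxo32, Eif4ebp1, Gadd45a, Cebpb and Cebpd held in all 12.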

How the data were processed

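Muscle RNA of 12 mice was hybridised to 12 one-colour Affymetrix arrays. The deposited values are log2 signals from the authors' MAS5 run, as named in the submitters' processing notes, with no version, batch or probe sequence stated there. The values were used as deposited. On the linear scale their 2 to 98% trimmed mean was 100.0 on every array, so each array was scaled to one target. The 3 arrays per group limit the precision.

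Of 45101 probe sets, 64 controls were left out, and of the 45037 kept, 34945 carried 1 gene symbol in the platform annotation, 932 several and 9160 none. Genes were kept above a mean of 3.78 (13.8 on the linear scale), with the brightest probe set for each, which left 11345. A linear model over the 4 groups was fitted in limma 3.58.1 (R 4.3.3) with an intensity trend and 8 residual degrees of freedom. P-values were adjusted by Benjamini-Hochberg over all genes within each contrast at 0.05. The 3′ to 5′ ratio was compared by a two-sided exact permutation test. Tables and figures used Python 3.11.15, pandas 2.3.3, numpy 2.4.6, scipy 1.17.1 and matplotlib 3.10.9. The fit was tested on simulated data.

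The genes named are the α-arrestins, up to 4 called genes per list and diet contrast by adjusted p (2 by size in lists with none), up to 2 brightest markers per cell type, and the 5 most alike genes. Nr3c1, Mlxip, Slc2a4, Kdr, Myh2, Mb, Vps26c, Mxi1, Pfkfb3, Nedd4, Nedd4l and Ndfip2 were added after their values were seen. So were the values of Fbxo32, Eif4ebp1, Gadd45a, Sesn1, Ddit4 and Fkbp5 in the other genotype. The averaged values of single list genes were also added in this way. The members and lists were chosen with earlier results of these data known. Alternatives were 2 normalizations, 2 filters, another rule for probe sets, an offset for low values, array weights, no trend, the 3′ to 5′ ratio as a covariate, fits of only the groups compared, and leaving out each mouse.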

Additional observations from a re-analysis of the deposited data

How the results depend on the processing

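The diet calls of Arrdc2 and Arrdc3 held in both genotypes under every alternative run and without any 1 of the 12 mice, with adjusted p up to 0.0414. Among the 5 genes 2 or 3 were called by diet throughout, and 0 by genotype or interaction. Txnip was called on the mean of its probe sets in KO (−0.58, limma adjusted p = 0.0214) and in wild-type muscle (−0.58, adjusted p = 0.017), and its averaged call was lost without an intensity trend and with the 3′ to 5′ covariate (adjusted p = 0.0873 in each). On Gapdh alone the HFD minus ND difference in the 3′ to 5′ ratio was 0.0118 (exact permutation p = 0.398), against 0.1209 to 0.1734 when leaving out each mouse. The cause was not tested for any of these.

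Some values that were not called turned sign, as did the call of Prdx2. On the mean of all probe sets the diet difference of Arrdc1 was −0.41 in KO and −0.0563 averaged, that of Arrdc4 was 0.0572 in wild type and that of Prdx2 −0.49 in wild type. On that mean the genotype difference of Arrdc1 on HFD was −0.62, and the interactions were −0.71 for Arrdc1, −0.27 for Arrdc4 and -1e-04 for Txnip. Under median centring the interaction was −0.0298 for Txnip, −0.0687 for Arrdc1 and −0.0096 for Arrdc3, under quantile normalization −0.0303 for Arrdc1, and with the covariate −0.13 for Arrdc1 and 0.0494 for Arrdc2.

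Leaving out each mouse, the diet difference of Arrdc4 ranged from −0.50 to 0.10 in wild type, −0.32 to 0.17 in KO and −0.28 to 0.02 averaged, and that of Arrdc1 in KO from −0.0336 to 0.36. Genotype differences ranged from −0.30 to 0.0473 for Arrdc3 on ND, and on HFD from −0.26 to 0.0281 for Arrdc3, −0.0858 to 0.85 for Arrdc2 and −0.028 to 0.37 for Arrdc1. Interactions ranged from −0.0828 to 0.17 for Txnip, −0.17 to 0.23 for Arrdc1, −0.39 to 0.54 for Arrdc2, −0.13 to 0.22 for Arrdc3 and −0.17 to 0.43 for Arrdc4.

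Counts over all genes moved more. The alternatives gave 232 to 881 for diet in KO (515 as reported), 186 to 780 in wild type (687), 522 to 1869 averaged (1552), 7 to 163 for genotype on HFD (83), 19 to 90 on ND (47) and 1 to 22 for the interaction (16). With probe sets tested separately, the calls in that order were 653, 1011, 2177, 89, 59 and 6 of 19387 probe sets. Leaving out each mouse gave 133 to 556, 199 to 918, 1021 to 1689, 15 to 237, 9 to 68 and 4 to 31 in that order. The refits of the dimmer Txnip probe set without each mouse were chosen after seeing the data. No paired analysis was possible because the mouse numbers differ between all groups and the labels give no shared replicate numbers.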
